A study of Homo sapiens with 6 samples.

Results

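Genes of the nuclear lamina and of the HMGB family were followed in human neural stem cells after knockdown of BMI1 and COMMD3-BMI1. The members were picked by symbol, with earlier results of these data known: the lamin genes LMNB1, LMNB2 and LMNA, the genes of lamina-associated proteins LBR, TMPO, EMD and BANF1, and HMGB1, HMGB2 and HMGB3. All 10 members were found among the 26485 gene symbols of the files, and all 10 passed the filter on low counts, which left 12937 genes for testing. The cells were AF22, an established line, sequenced as 2 groups with 3 RNA libraries each. In the knockdown group the stated targets were BMI1, whose product is a Polycomb protein that helps to silence genes, and COMMD3-BMI1, its annotated read-through with the upstream neighbour COMMD3; the control group carried a control short hairpin RNA and is labelled wild type. Both groups are of this single line, and the labels do not say whether the libraries of a group came from separate cultures, so the p-values reflect only how far these libraries vary, and that variation may be technical.

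The lamina is a meshwork of lamin filaments under the inner nuclear membrane. B-type lamins stay attached to the membrane by a lipid anchor, whereas A-type lamins, spliced from LMNA, also occur inside the nucleus. LBR, the LAP2 proteins encoded by TMPO, and emerin are bound to lamins, and LAP2 and emerin hold chromatin through the small DNA-bridging protein BANF1. HMGB proteins bend DNA and loosen chromatin; HMGB1 also acts as an alarm signal outside the cell. Loss of lamin B1 and of nuclear HMGB1 and HMGB2 is widely used as a mark of cellular senescence, and several of these genes are also more active in dividing than in resting cells. LMNB1 and LMNB2 are needed for normal development of the brain in mice.

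Levels are given as counts per 1000000 counts of the library (CPM), scaled between libraries by edgeR's TMM factors. Each gene was tested with edgeR's quasi-likelihood test over all 12937 genes, and a gene was called at a Benjamini-Hochberg adjusted p under 0.05. Libraries with the same number in both groups deviated together from their group means, so changes are given from the fit with the library number as a block unless the fit without it is named; without the block edgeR called no gene, and each call below rests on the pairing. Log2 fold changes are knockdown over control throughout.

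Total counts ran from 4962745 to 9640349 in knockdown libraries and from 5496683 to 6870122 in control libraries. BMI1 had 193, 159 and 250 counts in knockdown libraries 1, 2 and 3, against 463, 582 and 606 in control libraries 1, 2 and 3, and COMMD3-BMI1 was listed at 0 in all 6. Reads of exons that the read-through shares with BMI1 or COMMD3 could have gone to those genes or been dropped. The level of COMMD3-BMI1 can therefore not be read from these counts. Knockdown library 2 stood apart at 40.2 on the first principal component, and the other 5 libraries lay between -25.5 and 11.5. All 11 neural stem cell markers were tested and none was called with the block, but 9 of the 11 had a log2 fold change below 0 and their median was -0.20, near that of the 10 members. SOX2 averaged 325 CPM in knockdown and 345 CPM in control libraries, while SOX1 had a log2 fold change of -0.40 (adjusted p 0.159), PROM1 of -0.38 (adjusted p 0.0765) and PAX6 of -0.36 (adjusted p 0.156). Their summed level was 2980 to 4139 CPM in knockdown and 3595 to 3841 CPM in control libraries. VIM alone averaged 2133 CPM in knockdown and 1899 CPM in control libraries. Some markers of other cell types were present as well, while others were near 0. Of 4 pluripotency markers NANOG had no counts, but LIN28A averaged 317 CPM in knockdown and 268 CPM in control libraries, POU5F1 averaged 66.3 CPM in knockdown and 76.1 CPM in control libraries, and the list summed to 482 to 600.3 CPM in knockdown and 408 to 561 CPM in control libraries. Of 8 neuronal markers RBFOX3 had no counts, STMN2 at most 2 and DCX at most 7 in any library, and ELAVL3 fell (-0.96, adjusted p 0.0256). The list summed to 645 to 748 CPM in knockdown and 632 to 699 CPM in control libraries. Most of this was MAP2 (543 CPM in knockdown and 489 CPM in control libraries) and TUBB3 (140 and 154 CPM). Of 6 astrocyte markers GFAP had at most 1 count, ALDH1L1 at most 2 and SLC1A2 at most 4. The list summed to 307 to 327 CPM in knockdown and 288 to 308 CPM in control libraries. Most of this was SLC1A3 (222 CPM in knockdown and 215 CPM in control libraries) and S100B (95.1 and 81.1 CPM). All 8 mesenchymal markers had a log2 fold change above 0 (median 0.28) and summed to 1608 to 2266 CPM in knockdown and 1284 to 1570 CPM in control libraries. Most of this was COL3A1, at 1393 CPM in knockdown and 1057 CPM in control libraries. COL3A1 rose (0.39, edgeR adjusted p 0.0322, and 0.0928 without pair 3). The part of these cell type markers in the results was not tested.

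Transcripts of HMGB2, LMNB1 and TMPO were lower in knockdown libraries: with the block they fell to 68.7%, 77.0% and 79.5% of the control level. These 3 of the 10 members were called lower, and no member was called higher, where 5.39% of all genes tested were called lower and 4.63% higher. The remaining 7 had log2 fold changes between -0.33 (HMGB1) and -0.06 (LMNA) and did not pass. All 10 members had a log2 fold change below 0, with a median of -0.23 (-0.14 and 9 of 10 without pair 2), against a median of -0.0045 and 6583 of 12937 genes below 0 over all genes tested. In all, 8 of 10 members were lower in every same-numbered pair, as were 26.7% of all genes tested, though BANF1 and HMGB1 differed by only -0.00063 and -0.00051 (log2) in pair 1; none was higher in every pair, as 25.6% of all genes were. In bulk RNA, a change in the share of cells in a given state and a change of RNA per cell cannot be told apart.

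Without the block no member was called (0 of 10), and neither was any gene (0%). At an unadjusted p under 0.05 the count was 1 of 10 members (TMPO), lower in knockdown, beside 7.88% of all genes. Without the block DESeq2 and limma voom also called 0 members, where DESeq2 called 126 of all 12937 genes and limma voom 0. Their counts at an unadjusted p under 0.05 were 3 and 1 of the 10 members, beside 1563 and 1925 of all 12937 genes in either direction. Leaving out pair 2, which holds the knockdown library that stood apart, 5 members were called lower with the block (LMNB1, LMNB2, TMPO, HMGB1 and HMGB2). Without pair 3 only 2 were (LMNB1 and HMGB2). Calls over all genes moved as well, with 1098 of 12846 called lower without pair 2 and 533 of 12876 without pair 3. In either direction, 1296 genes were called with the block on all pairs and 2296 without pair 2. With a pair left out, fewer libraries estimate the variance of each gene, so a call there is weaker grounds than a call on all pairs.

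**Figure D1:**
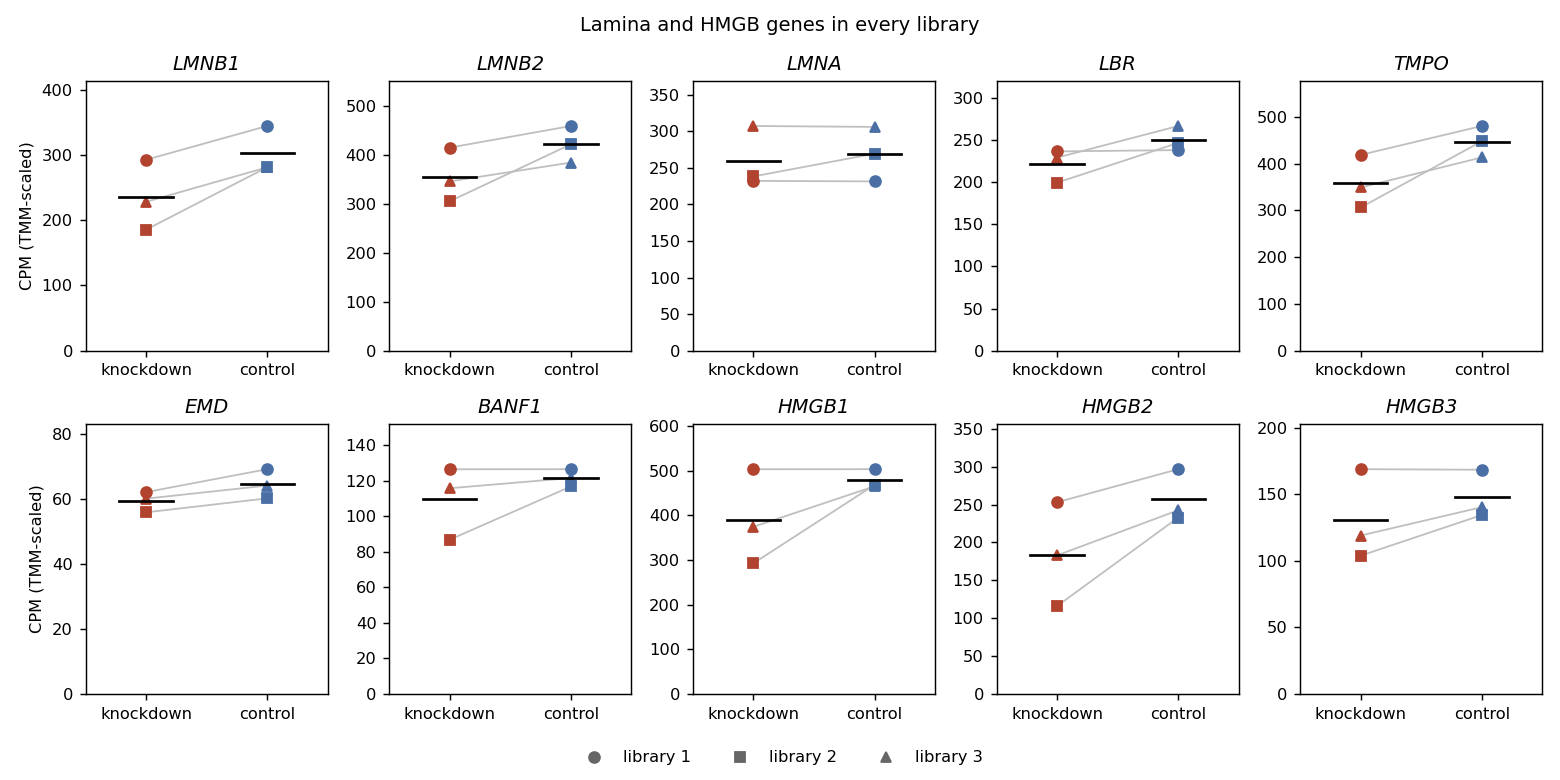
Level of each of the 10 genes in CPM (TMM-scaled; vertical axes start at 0) in 3 knockdown and 3 control libraries; marker shapes give the library number, grey lines join libraries of the same number, and black bars are group means. Libraries numbered 1 lie closest together for most genes, and only in LBR do all 3 knockdown libraries lie below all 3 control libraries.

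LMNB1 encodes lamin B1 (ENSG00000113368.11, chromosome 5, 126776623 to 126837020, plus strand; GRCh38, GENCODE 29). It was at 293, 185 and 228 CPM in knockdown libraries 1, 2 and 3, against 344, 281 and 281 CPM in control libraries 1, 2 and 3. Every knockdown library was below the control library of its number, but knockdown library 1 was above control libraries 2 and 3, so the groups overlapped. The means were 235 ± 53.9 CPM in knockdown and 302 ± 36.5 CPM in control libraries (SD, n = 3 each). With the block the log2 fold change was -0.38 (SE 0.080, 95% interval -0.56 to -0.19, edgeR adjusted p 0.0296). Without the block it was -0.36 (SE 0.167, adjusted p 0.367; -0.22 without knockdown library 2), so the call rested on the pairing.

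LMNB2 encodes lamin B2, the second B-type lamin (chromosome 19, 2427638 to 2456996, minus strand). It was at 416, 306 and 347 CPM in knockdown libraries 1, 2 and 3, against 459.9, 422 and 385 CPM in control libraries 1, 2 and 3. The order of libraries was like that of LMNB1, with a smaller gap and an overlap between knockdown library 1 and control library 3. The log2 fold change was -0.25 with the block (SE 0.079, adjusted p 0.0733) and -0.25 without it (adjusted p 0.424), and passed in neither; with the block and without pair 2 it was -0.15 and passed (adjusted p 0.00994). LMNB2 shares 257 bases of exon with TIMM13 on the same strand, so reads there could have gone to either gene.

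LMNA encodes lamins A and C (chromosome 1, 156082573 to 156140089, plus strand), which the counts per symbol do not separate. It was at 232, 238 and 307 CPM in knockdown libraries 1, 2 and 3, against 232, 269 and 306 CPM in control libraries 1, 2 and 3. Libraries 1 and 3 of the knockdown group were level with their numbered controls, and the spread of LMNA lay between library numbers rather than between groups. The log2 fold change was -0.06 with the block (95% interval -0.21 to 0.10, adjusted p 0.619). It turned to 0.0033 without pair 2, and to 0.024 without knockdown library 1 in the fit without the block.

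The 2 lamin types can be compared within a library, which needs no scaling between libraries. The ratio of LMNB1 to LMNA counts was 1.26, 0.778 and 0.743 in knockdown libraries 1, 2 and 3, against 1.49, 1.04 and 0.918 in control libraries 1, 2 and 3. The ratio was lower in knockdown in every pair, by log2 differences of -0.24, -0.42 and -0.31 (mean -0.32, SD 0.093, n = 3 pairs). The ratio of LMNB1 to LMNB2 differed less, by -0.09, -0.13 and -0.15 in the 3 pairs. These ratios are descriptions with no test.

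LBR encodes the lamin B receptor, an inner membrane protein that is also a sterol reductase (chromosome 1, 225401502 to 225428925, minus strand). It was at 237, 199 and 229 CPM in knockdown libraries 1, 2 and 3, against 238, 247 and 267 CPM in control libraries 1, 2 and 3. It was the 1 member of 10 whose groups did not overlap, with every knockdown library below every control library, as in 11.2% of all genes tested. The gap between knockdown library 1 and control library 1 was, however, only -0.01 on the log2 scale. LBR had a log2 fold change of -0.18 with the block (SE 0.073, adjusted p 0.144) and did not pass, nor did it without the block (-0.18, adjusted p 0.446; -0.11 without knockdown library 2).

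TMPO encodes the LAP2 proteins (chromosome 12, 98515512 to 98550379, plus strand), whose isoforms are counted together. It was at 419, 306 and 349 CPM in knockdown libraries 1, 2 and 3, against 481, 448 and 413 CPM in control libraries 1, 2 and 3. As for LMNB1, each knockdown library was below its numbered control, and only knockdown library 1 reached into the control range. The log2 fold change was -0.33 with the block (SE 0.080, 95% interval -0.51 to -0.15, adjusted p 0.0397), and -0.32 without the block (adjusted p 0.311). The call was lost without pair 3 (-0.37, adjusted p 0.0714) and with DESeq2 (adjusted p 0.0555, with the block). TMPO shares 713 bases of exon with TMPO-AS1 on the opposite strand, and the strand setting of the counting is not given, so reads of that stretch cannot be assigned.

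EMD encodes emerin, which like LAP2 carries a LEM domain that binds BANF1. It was at 62.0, 55.8 and 60.0 CPM in knockdown libraries 1, 2 and 3, against 69.1, 60.1 and 64.1 CPM in control libraries 1, 2 and 3. Its differences within pairs were small and alike, at -0.15, -0.11 and -0.09 on the log2 scale. With the block EMD had a log2 fold change of -0.12 (95% interval -0.28 to 0.05, adjusted p 0.324), and without it -0.12 (adjusted p 0.576). BANF1 was at 127, 86.9 and 116 CPM in knockdown libraries 1, 2 and 3, against 127, 117 and 122 CPM in control libraries 1, 2 and 3. Here knockdown library 2 alone lay well below the rest, and the log2 fold change with the block was -0.16 (95% interval -0.37 to 0.04, adjusted p 0.258). Without pair 2 it was -0.042, and without the block and knockdown library 2 it was -0.0080; the fit without the block on all libraries gave -0.15 (adjusted p 0.628). BANF1 shares 98 bases of exon with EIF1AD on the opposite strand.

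**Figure D2:**
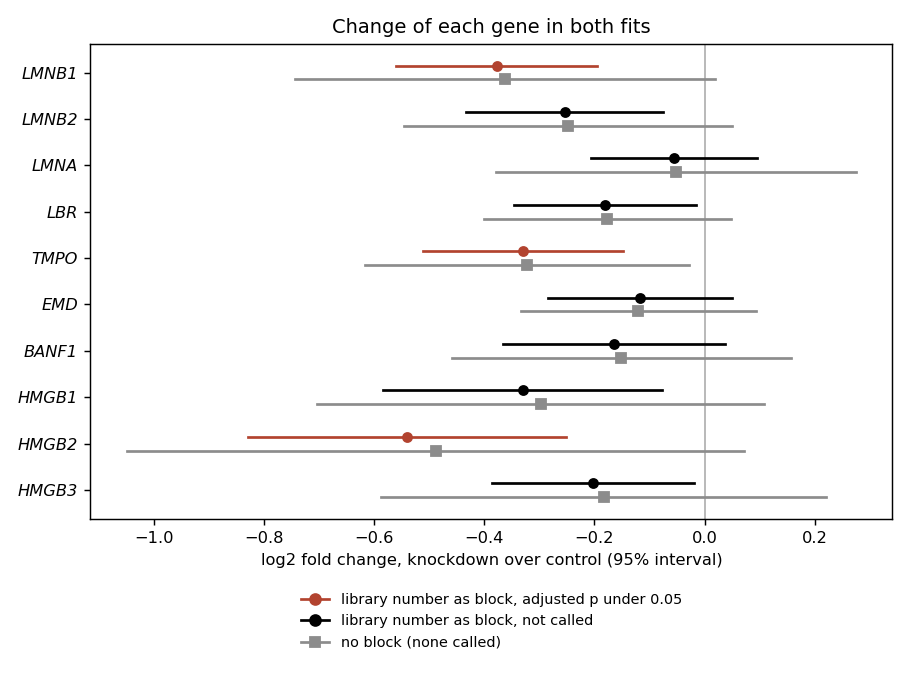
Log2 fold change of each gene, knockdown over control, with its 95% interval, from the fit with the library number as a block (circles; red where called) and from the fit without it (grey squares). The points of both fits nearly coincide, and the intervals are narrower with the block, where LMNB1, TMPO and HMGB2 are called.

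Among the HMGB genes HMGB2 fell most and was the member with the largest change of all 10. HMGB2 (ENSG00000164104.11, chromosome 4, 173331695 to 173335125, minus strand) was at 253, 116 and 183 CPM in knockdown libraries 1, 2 and 3, against 297, 233 and 243 CPM in control libraries 1, 2 and 3. Each knockdown library was below its numbered control, knockdown library 2 by the widest margin, and knockdown library 1 lay inside the control range. The means were 184 ± 68.6 CPM in knockdown and 257 ± 34.4 CPM in control libraries (SD, n = 3 each). With the block the log2 fold change was -0.54 (SE 0.127, 95% interval -0.83 to -0.25, adjusted p 0.0369), and without the block it was -0.49 (adjusted p 0.405; -0.24 without knockdown library 2 and -0.78 without knockdown library 1). Without pair 2 the size was smaller, at -0.32, and HMGB2 was called in that fit on fewer libraries.

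HMGB1, which also signals damage outside the cell, was at 503, 293 and 374 CPM in knockdown libraries 1, 2 and 3, against 503, 468 and 465 CPM in control libraries 1, 2 and 3. The libraries numbered 1 were level and the other pairs were not, so that the groups overlapped. The log2 fold change of HMGB1 was -0.33 with the block (SE 0.112, adjusted p 0.0930) and -0.30 without it (adjusted p 0.476), and passed in neither; with the block it passed without pair 1 (-0.49, adjusted p 0.0248) and without pair 2 (-0.17, adjusted p 0.00290). HMGB3, known in mice for its part in blood stem cells, was at 169, 104 and 119 CPM in knockdown libraries 1, 2 and 3, against 168, 134 and 140.2 CPM in control libraries 1, 2 and 3. Again the libraries numbered 1 were level, and its log2 fold change of -0.20 with the block did not pass (SE 0.081, adjusted p 0.142; -0.13 without pair 2), nor did -0.18 without the block (adjusted p 0.658; -0.046 without knockdown library 2). GENCODE 29 names 48 pseudogenes after HMGB1, 29 after HMGB3, 5 after BANF1, 2 after TMPO and 1 after HMGB2, so reads of these genes could have been split or dropped.

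Proportions within the family can also be read inside a library, as descriptions with no test. The ratio of HMGB2 to HMGB3 counts was 1.5, 1.12 and 1.54 in knockdown libraries 1, 2 and 3, against 1.76, 1.73 and 1.73 in control libraries 1, 2 and 3. The control libraries hardly varied, and all 3 knockdown libraries lay below them. The ratio of HMGB2 to HMGB1 was 0.503, 0.396 and 0.489 in knockdown and 0.589, 0.497 and 0.521 in control libraries, lower in every pair but with overlapping groups. HMGB3 against HMGB1 went the other way, at 0.336 ± 0.0185 in knockdown and 0.308 ± 0.0243 in control libraries (SD, n = 3 each; overlapping groups).

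**Figure D3:**
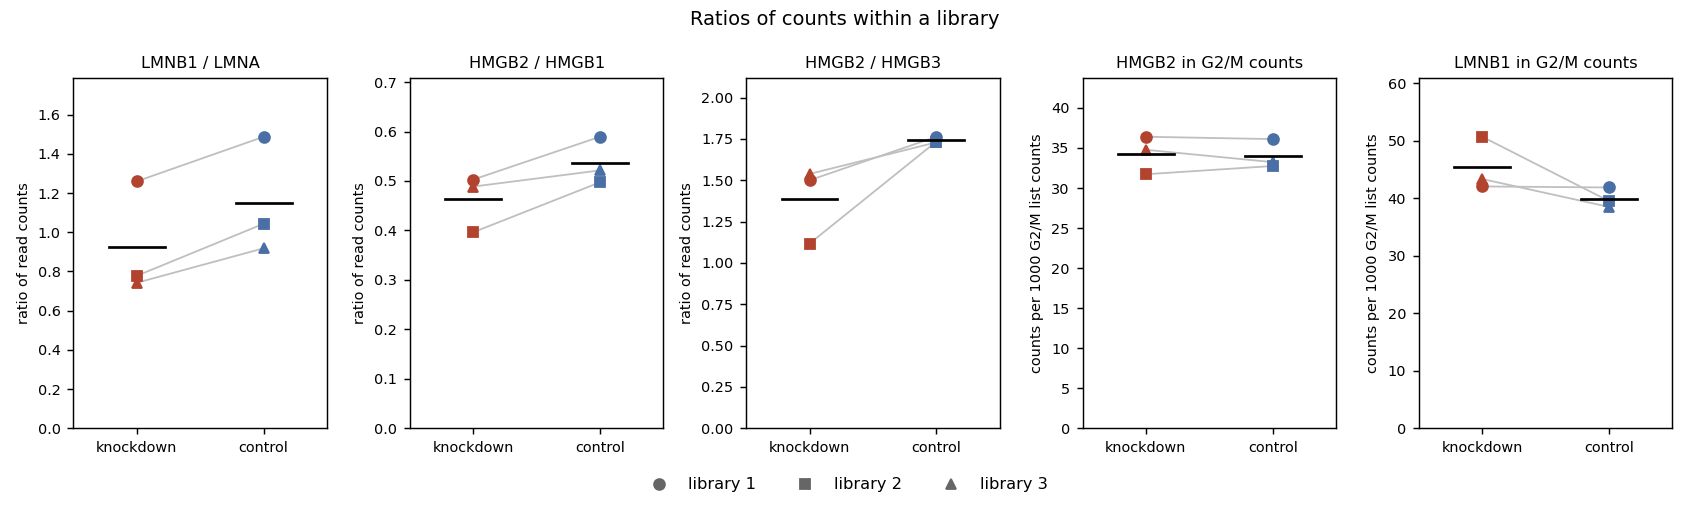
Ratios of read counts within each library (vertical axes start at 0), in 3 knockdown and 3 control libraries: LMNB1 over LMNA, HMGB2 over HMGB1, HMGB2 over HMGB3, and HMGB2 and LMNB1 per 1000 counts of the G2/M gene list. The LMNB1 to LMNA ratio is lower in knockdown in every pair, while HMGB2 per 1000 G2/M counts averages 34.3 in knockdown and 34.0 in control libraries.

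Sequence upstream of 4 members is shown, of LMNB1 (called lower), HMGB1 and HMGB3 (lower without a call) and LMNA (nearly level). HMGB2, the member with the largest change, had no promoter sequence to show. The stretches are from RefSeq's GRCh38.p14 promoters, the bases before a start site outside exons that GENCODE 29 gives that gene. They were searched on both strands for E2F-like sites (TTTCCCGC, TTTCGCGC, TTTGCCGC or TTTGGCGC), for cell cycle homology regions (CHR; TTTGAA or TTCGAA) and for CCAAT boxes (CCAAT), and capitals mark matches; the LMNB1 stretch holds none. Matches of different motifs did not overlap in these stretches.
LMNB1 (chr5:126776373-126776622, plus strand): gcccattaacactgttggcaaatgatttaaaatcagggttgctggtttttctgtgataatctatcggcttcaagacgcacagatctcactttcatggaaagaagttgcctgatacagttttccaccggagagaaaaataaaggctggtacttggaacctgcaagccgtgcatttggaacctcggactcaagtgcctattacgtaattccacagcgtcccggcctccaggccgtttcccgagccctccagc
HMGB1 (chr13:30465966-30466186, minus strand): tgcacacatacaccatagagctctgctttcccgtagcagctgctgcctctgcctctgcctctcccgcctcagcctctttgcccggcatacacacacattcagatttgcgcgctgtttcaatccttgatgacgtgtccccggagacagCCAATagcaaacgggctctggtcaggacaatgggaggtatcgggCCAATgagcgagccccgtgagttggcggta
HMGB3 (chrX:150983085-150983285, plus strand): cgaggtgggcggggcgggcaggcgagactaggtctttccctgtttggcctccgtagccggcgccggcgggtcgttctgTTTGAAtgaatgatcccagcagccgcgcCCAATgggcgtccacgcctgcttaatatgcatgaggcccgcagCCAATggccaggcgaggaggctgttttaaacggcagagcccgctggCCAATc
LMNA (chr1:156082323-156082572, plus strand): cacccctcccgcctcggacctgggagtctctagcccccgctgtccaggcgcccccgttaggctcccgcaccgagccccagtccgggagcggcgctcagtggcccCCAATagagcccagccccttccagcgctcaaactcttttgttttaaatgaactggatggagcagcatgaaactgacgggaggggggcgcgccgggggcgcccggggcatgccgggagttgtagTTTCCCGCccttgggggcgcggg

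RefSeq's table held 16 promoters of 300 bases for 9 of the 10 members; HMGB2 was named only. A CCAAT box was found in 8 of the 16, against 34.6% of the 35116 promoters of this length in the table. HMGB1 and HMGB3 each had a promoter with 3 of them, and both TMPO promoters had 2, which lie within an annotated exon and are not printed. An LMNB1 promoter other than the one printed had 1, also within an annotated exon. A CHR match was found in 3 of the 16 (HMGB3 above, LMNB2, and an HMGB1 promoter other than the one printed), against 16.4% of all promoters. The only E2F-like match was in a promoter of LMNA, whose counts hardly differed, against 3.31% of all promoters. Some promoters of a gene overlap, as those of TMPO do, and others lie far apart, as those of HMGB1 do; a match is a stretch of letters, not a bound site.

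Most listed genes of the division cycle were called lower with the block, as HMGB2, LMNB1 and TMPO were. With the block 33 of 42 listed G1/S and S phase genes fell (median -0.58) and 40 of 48 of the G2/M list fell (median -0.66). None of either rose, where 5.39% of all genes tested fell and 4.63% rose. Members were left out of both lists. MKI67, the gene of the proliferation antigen, was at 215 ± 73.1 CPM in knockdown and 383 ± 41.0 CPM in control libraries (SD, n = 3 each; log2 fold change -0.88 with the block, adjusted p 0.0222). Also among the 4 of smallest p in the G2/M list, CDCA3 fell by 1.15, TACC3 by 0.74 and G2E3 by 0.57 on the log2 scale. In the G1/S and S phase list, the checkpoint mediator gene CLSPN fell by 0.96, the replication factor gene GINS2 by 0.70 and the deubiquitinase gene USP1 by 0.57. The G2/M list differed by medians of -0.27, -1.14 and -0.53 in pairs 1, 2 and 3, and HMGB2 by -0.23, -1.0 and -0.41 in the same pairs. LMNB1 differed by -0.23, -0.60 and -0.30. Both genes had the order of pairs seen in the cycle lists, but that order was not particular to them. LMNB2, LBR, TMPO, BANF1, HMGB1 and HMGB3 had it too, while LMNA and EMD did not. It was also seen in the nuclear pore list, with medians of -0.08, -0.31 and -0.15 in pairs 1, 2 and 3. The part of the cycle genes in the change of HMGB2 and LMNB1 was not tested.

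Set against the summed counts of the G2/M list within a library, HMGB2 had a like proportion in both groups. It had 36.4, 31.7 and 34.8 counts per 1000 G2/M counts in knockdown libraries 1, 2 and 3, against 36.1, 32.7 and 33.2 in control libraries 1, 2 and 3. The groups overlapped, and the means differed by less than the spread in either group (34.3 ± 2.38 in knockdown and 34.0 ± 1.82 in control libraries; SD, n = 3 each). LMNB1 had 45.4 ± 4.66 counts per 1000 in knockdown and 40.0 ± 1.74 in control libraries. All 3 knockdown libraries lay above the control libraries, but libraries 1 were nearly level, at 42.1 in knockdown and 41.9 in control. Every member but HMGB2 was higher in knockdown in every pair on this measure, while most genes of the G2/M list were called lower. Per 1000 counts of the G1/S and S genes, however, LMNB1 had 59.5, 64.6 and 67.1 in knockdown libraries 1, 2 and 3, against 61.3, 54.3 and 60.3 in control libraries 1, 2 and 3, where the groups overlapped and pair 1 was lower in knockdown. Per 1000 G2/M counts LMNA had 52.3 ± 16.7 in knockdown and 36.0 ± 7.07 in control libraries.

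**Figure D4:**
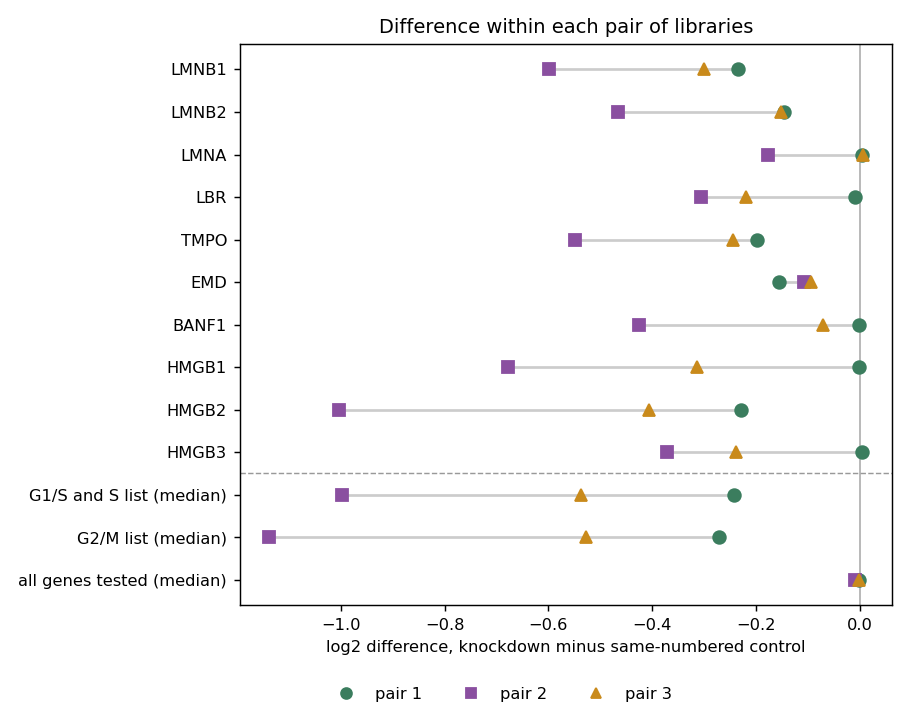
Log2 difference between each knockdown library and the control library of the same number, for the 10 genes and, below the dashed line, as the median over the G1/S and S list, the G2/M list and all genes tested. Pair 2 has the lowest value in every row but EMD, and HMGB2 lies nearest to the medians of the cycle lists.

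The genes nearest to HMGB2 and LMNB1 in their pattern over libraries were sought by distance. For HMGB2, over 6 libraries and 10428 candidate genes with a mean of at least 10 CPM, the smallest root mean square distances between centred log2 CPM values were those of CCNA2 (0.050), DLGAP5 (0.054), TMEM97 (0.058), CCNB2 (0.063) and DBF4 (0.064), where the median candidate was at 0.448. CCNA2 and CCNB2 encode cyclins A2 and B2, DLGAP5 a spindle protein and DBF4 the activator of the CDC7 kinase. For LMNB1 the nearest were PDLIM5 (0.021), FBXL19-AS1 (0.026), CTPS1 (0.031), HECW2 (0.035) and CCDC138 (0.037), against a median of 0.305. CTPS1 encodes a CTP synthase and PDLIM5 a cytoskeletal adaptor. PDLIM5 was at 125, 80.6 and 97.2 CPM in knockdown libraries 1, 2 and 3, against 143, 121 and 120.0 CPM in control libraries 1, 2 and 3.

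Levels between members were compared per kilobase of annotated exon, since a longer transcript yields more reads. In control libraries HMGB2 was highest at 92.8 ± 12.4 CPM per kb, followed by LMNB1 (83.2 ± 10.1), LMNB2 (77.8 ± 6.89), BANF1 (74.0 ± 2.96), HMGB1 (62.0 ± 2.75), TMPO (52.1 ± 3.91), LBR (47.7 ± 2.80), LMNA (38.5 ± 5.33), HMGB3 (37.2 ± 4.58) and EMD (31.9 ± 2.22; SD, n = 3 each). Only the steps from BANF1 to HMGB1, from HMGB1 to TMPO and from LBR to LMNA had library ranges that did not overlap. In knockdown libraries every neighbouring pair overlapped, with BANF1 at 66.7 ± 12.5, HMGB2 at 66.3 ± 24.7, LMNB2 at 65.5 ± 10.2 and LMNB1 at 64.8 ± 14.8 CPM per kb. Exon length here joins all annotated transcripts of a gene, so a gene with long exons that these cells do not use is set too low.

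Among the other genes of the nuclear envelope, most of the nuclear pore had log2 fold changes below 0, and few passed the test. The counts for this list and those that follow stand beside 5.39% of all genes tested called lower with the block and 4.63% called higher. In a short list, a call of 1 gene cannot be told apart from these shares. Of 30 tested nuclear pore genes 4 fell with the block and none rose; 27 of the 30 had a log2 fold change below 0, and the median was -0.19: NUP210, a pore membrane glycoprotein gene, fell by 0.64, NDC1, which anchors the pore, by 0.40, NUP155 by 0.36 and NUP50 by 0.30 on the log2 scale. NUP210 was at 54.5 ± 10.1 CPM in knockdown and 83.8 ± 0.408 CPM in control libraries (SD, n = 3 each; adjusted p 0.0225). NUP155 and NUP50 did not pass without pair 3, where 2 pore genes did, and 11 passed without pair 2. Of all genes tested, 533 of 12876 were called lower without pair 3 and 1098 of 12846 without pair 2. Of 11 genes of the inner membrane and LEM domain list 1 fell, ANKLE2, which controls BANF1 phosphorylation (-0.29, adjusted p 0.0422; not called without pair 1 or pair 3), at a list median of 0.01. Of 5 tested genes of the LINC complex, which ties the lamina to the cytoskeleton, the nesprin gene SYNE1 rose by 0.48 (adjusted p 0.0268), and the median was 0.05. SYNE1 was at 56.0 ± 11.7 CPM in knockdown and 40.0 ± 3.10 CPM in control libraries. None of 5 lamin processing enzymes passed with the block, among them ZMPSTE24, the prelamin A protease (0.19, adjusted p 0.123), and without the block the count was also 0.

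Of 14 genes that take the envelope apart and seal it, 2 fell with the block, beside 5.39% of all genes tested, at a list median of 0.02. VRK1, the kinase that releases BANF1 from chromatin in mitosis, fell by 0.63 (adjusted p 0.0495; -0.35 without pair 2). REEP4, which clears membrane from mitotic chromosomes, fell by 0.35 (adjusted p 0.0459; not called without pair 1 or pair 3). Of 10 genes of heterochromatin tethers and H3K9 methylation the methyltransferase gene SUV39H1 fell (-0.53, adjusted p 0.0428; 0.0897 without pair 3), and the 3 HP1 genes did not pass, with CBX1 at 0.04, CBX3 at 0.06 and CBX5 at -0.15. Of 15 other high mobility group and HMG box genes TFAM, the packing factor of mitochondrial DNA, fell by 0.45 (adjusted p 0.0268) and HMG20B rose by 0.29 (adjusted p 0.0443; 0.281 without pair 3); the median was -0.09. Neither of 2 tested receptors of extracellular HMGB1 passed.

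Of 14 listed senescence-associated genes outside the 10 members, 9 passed the filter on low counts. The secretory genes IL6, IL1A, CXCL8, MMP1 and MMP3 did not and were not tested. Of the 9 tested, 3 were called higher with the block and none lower (median 0.34), where 4.63% of all genes tested rose. A log2 fold change below 0 was found for 2 of the 9, GLB1 and IGFBP3. CDKN1A, which encodes the kinase inhibitor p21, was at 497 ± 91.0 CPM in knockdown and 353 ± 25.7 CPM in control libraries (SD, n = 3 each; log2 fold change 0.48, adjusted p 0.0222). CDKN2B, which encodes the kinase inhibitor p15, was low, at 8.59 ± 4.55 CPM in knockdown and 4.96 ± 2.58 CPM in control libraries, and its groups overlapped. It rose by 0.79 with the block (adjusted p 0.0330, and 0.166 without pair 3). GLB1, the gene of the lysosomal galactosidase used as a senescence stain, had a log2 fold change of -0.11 (adjusted p 0.360). IGFBP3 was at -0.43 with the block (edgeR adjusted p 0.0910). CDKN2A was low too, at 6.34 ± 2.29 CPM in knockdown and 4.34 ± 1.06 CPM in control libraries (log2 fold change 0.60, adjusted p 0.181). Leaving out 1 pair moved several of these small counts. Without pair 1, 2 or 3 in turn, 2, 2 and 1 LINC genes rose and 2, 2 and 0 heterochromatin genes fell. In the same fits 2, 3 and 1 other HMG genes fell, and 4, 3 and 1 senescence-associated genes rose while 1 of them fell each time. Over all genes tested, 591, 1198 and 379 rose and 729, 1098 and 533 fell in these fits.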

How the data were processed

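The members and gene lists were chosen with earlier results of these data known. Total RNA of AF22 cells was made into directional libraries, per the labels' protocols. The authors deposited 1 table of whole-number read counts per gene symbol for each of 6 libraries, taken as raw because no value is fractional and library totals differ (4962745 to 9640349). The submitters' processing notes list bedtools, STAR 2.7.10a, Trim Galore 0.6.6 and the hg38 build; how reads were counted, on which annotation and strand, is not given in the sources used here.

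The test was edgeR 4.0.16 (R 4.3.3), with default filterByExpr, TMM factors, a quasi-likelihood fit and Benjamini-Hochberg adjustment. The fit planned as the main one was on group alone, and it called no gene. Values in the Results are from the fit with the library number as a block unless the other fit is named. The SE is the log2 fold change divided by the root of F. Log2 CPM used a prior count of 2. Knockdown and control libraries that share a number had residuals about their group means that correlated across genes at 0.563, 0.467 and 0.535, each above 0.1, so libraries were paired by number; this pairing comes from the data, not the labels. The fit with the number as a block was listed as an alternative, with RLE factors, total count, other filters, DESeq2 1.42.0, limma 3.58.1 voom and leaving out libraries or pairs. The pipeline was tested on simulated data.

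Named were all members, up to 4 genes per list of smallest p with the block, the 5 genes nearest in pattern to LMNB1 and HMGB2, and BMI1 with COMMD3-BMI1. Marker genes, ZMPSTE24, GLB1, CDKN2A, IGFBP3, the HP1 genes and the untested senescence-associated genes were added after their values were seen. Of 32 nuclear pore symbols 30 were found in the files. Some genes that this rule selects are not reported here.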

Additional observations from a re-analysis of the deposited data

How the results depend on the processing

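Without the block, the count of called genes was 0 with TMM, RLE and total count scaling, with at least 1 CPM in 3 libraries and with limma voom, 2 with no filter on low counts, 126 with DESeq2, and 0 to 665 when 1 library was left out (665 without knockdown library 1); 0 members were called in each of these. With the replicate block it was 1296 (3 members), 1335 with RLE factors (3 members), 1283 with total count (3), 2171 with no filter (5), 1328 with at least 1 CPM in 3 libraries (3), 590 with DESeq2 (2), 1390 with limma voom (3), and, when 1 pair was left out, 1320 (4 members) without pair 1, 2296 (5) without pair 2 and 912 (2) without pair 3. LMNB1 and HMGB2 were called in all 10 fits with the block, TMPO in 8, HMGB1 in 3 and LMNB2 in 2. The log2 fold change of LMNA turned its sign, running from -0.19 to 0.051 when 1 library was left out (0.024 without knockdown library 1, 0.0079 without knockdown library 2) and from -0.088 to 0.0033 with the block when 1 pair was. The other 9 members stayed below 0 in all 23 fits. The split of calls with the block was 599 higher and 697 lower with TMM, 494 and 789 with total count. Medians of lists moved by more than the spread between pairs in 15 cases, all in the inner membrane, LINC, lamin processing, sealing and senescence lists. The causes were not tested. The median of the members was -0.22 without the block and -0.12 when knockdown library 2 was also left out. With 3 libraries a group, a p above the threshold does not show that a gene did not differ.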

Other observations

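TLR4, which encodes a receptor of bacterial lipopolysaccharide and of HMGB1, was at 239 ± 42.6 CPM in knockdown and 203 ± 29.3 CPM in control libraries (SD, n = 3 each). It did not pass with the block (log2 fold change 0.23, edgeR adjusted p 0.0539). The receptor gene AGER was low, at 4.39 ± 1.56 CPM in knockdown and 5.27 ± 0.630 CPM in control libraries.

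Of 14 tested genes of envelope disassembly and sealing 5 had a log2 fold change below 0 with the block. None passed as higher, though 2 did without pair 2, where 1198 of 12846 genes tested did. In 4 of them (CHMP7, IST1, REEP3 and VPS4B) every knockdown library was above every control library, as in 1200 of all 12937 genes tested. VPS4B, which takes ESCRT filaments apart, was at 72.3 ± 10.1 CPM in knockdown and 55.1 ± 2.89 CPM in control libraries, and lay just outside the threshold with the block (0.38, edgeR adjusted p 0.0501). REEP3, a relative of REEP4, was at 104 ± 8.35 CPM in knockdown and 85.8 ± 1.91 CPM in control libraries (0.28, edgeR adjusted p 0.0537), where REEP4 was at 28.4 ± 1.84 CPM in knockdown and 36.2 ± 3.00 CPM in control libraries. These genes were singled out after their values were seen.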
